A study of Danio rerio with 4 samples.

Results

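The Pdgf genes examined were the ligand genes pdgfba (ENSDARG00000086778) and pdgfbb (ENSDARG00000038139) and the receptor genes pdgfra (ENSDARG00000070494) and pdgfrb (ENSDARG00000100897). They were chosen by gene symbol and are 4 of the 25432 genes listed for each library. Single cells of whole dissected zebrafish trunks, with heads removed, were profiled at 3 days post-fertilization (dpf) by droplet sequencing of transcript 3' ends. There were 2 libraries of WT embryos and 2 libraries of embryos carrying the flt1ka604 allele, called flt1 mutants here, with no other treatment in any group. flt1 encodes a Vegf receptor that acts as a decoy, and the methods describe this allele as a small frameshifting deletion that truncates the protein. The labels do not say how many trunks were pooled or whether libraries came from separate clutches, so p-values measure only the spread between these libraries, which may be technical.

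Pdgf ligands are secreted dimers that bind receptor tyrosine kinases. In vertebrates, Pdgfb made by endothelial cells recruits pericytes and vascular smooth muscle cells, the mural cells that carry the receptor Pdgfrb and wrap blood vessels. Pdgfra is best known in fibroblasts and other mesenchymal cells, where it answers mainly to Pdgfa and Pdgfc, and zebrafish carry duplicated genes for both the A and the B chain.

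After filtering, 19611 of the 32486 barcodes were retained, and the retained cells of the 4 libraries held between 35781471 and 61822943 unique molecular identifiers (UMIs, each standing for 1 captured transcript). Depth was uneven, with a median of 8033 and 3760 UMIs per cell in WT replicates 1 and 2 and of 5037.5 and 779 in flt1 mutant replicates 1 and 2. Any pair of libraries shared at most 25 cell barcodes. The targeted gene could not be used to check the labels, since a 3' tag lies outside the deletion. In endothelial-like cells flt1 stood at 209.9 and 212.5 counts per 1000000 UMIs (CPM) in WT and at 240.0 and 168.1 CPM in the mutant libraries. All levels below are CPM, the UMIs of a gene per 1000000 UMIs of the named cells in 1 library, and means are over the 4 libraries with their SD unless stated otherwise.

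Cells were clustered without the 4 Pdgf genes and named from marker lists, so class names end in "-like". The largest cluster, of 6199 cells with a median of only 583 UMIs, stayed unnamed. It held 301 and 2250 cells of the WT libraries and 1114 and 2534 of the mutants. These shallow cells count in the library medians and in the shares of all retained cells. All 22 endothelial markers were higher in the endothelial-like cluster, which held 162 cells (21 and 54 from WT, 34 and 53 from flt1 mutants). The label mural held less well. No cluster or subcluster could be named pericyte-like, and the class called smooth muscle-like (887 cells) joined a subcluster led by the contractile genes acta2, tagln and csrp1b (166 cells) with groups led by other genes, the largest by hand2, nkx3.3 and nkx2.3 (366 cells) and a further one of 210 cells, led by rspo4, that was named fibroblast-like on its own. For the hand2 subcluster and that led by emilin3a the pericyte list matched best, but none of its genes was among the leading 10. Whether cells of the smooth muscle-like class came from vessels or from other organs was not tested. Other mesenchymal classes were mixed as well. Of the 1332 chondrocyte or sclerotome-like cells, 127 and 113 fell into the cartilage subclusters led by col10a1a and col9a1b, while 415 fell into a subcluster led by foxd1, 339 into one led by gsc and 166 into one led by ccl25b that was named fibroblast-like. The fibroblast-like class (780 cells) held 127 and 114 muscle progenitor-like cells led by myf5 and by myog. Although heads were removed, 47 and 43 photoreceptor-like cells were retained from the WT libraries and 1 and 10 from the mutants. A cluster led by gnb3a, gng13b and vsx1 was uneven too, at 38 and 20 against 0 and 9 cells. The part of leftover head tissue in the genotype values was not tested. Of the 11 pericyte genes, smooth muscle-like cells held most UMIs of rgs5a (691), kcne4 (674) and notch3 (618), then of cspg4 (121) and foxc1b (117). The others had 5 to 46 UMIs, among them abcc9 (31) and kcnj8 (5). In fibroblast-like cells notch3 had 672 UMIs, against 3 of rgs5a and 0 of kcne4. Free RNA was gauged from superficial epidermis-like and erythroid-like cells, which should lack the receptors and had the high median depths of 21174 and 16822 UMIs.

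The retained cells held 954 UMIs of pdgfba in 613 cells, 632 UMIs of pdgfbb in 429 cells, 7475 UMIs of pdgfra in 2415 cells and 1817 UMIs of pdgfrb in 966 cells. The ligand genes and the receptor genes were highest in different classes, although smooth muscle-like cells, high in both receptor genes, also held 106 UMIs of pdgfbb. pdgfbb was highest in endothelial-like cells, pdgfba was about as high in basal epidermis-like as in endothelial-like cells, and both receptor genes were highest in the smooth muscle-like, fin fold mesenchyme-like and chondrocyte or sclerotome-like classes. The counts are per 3' tag and the files give no transcript length, so the levels of different genes are not compared with each other.

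**Figure D1:**
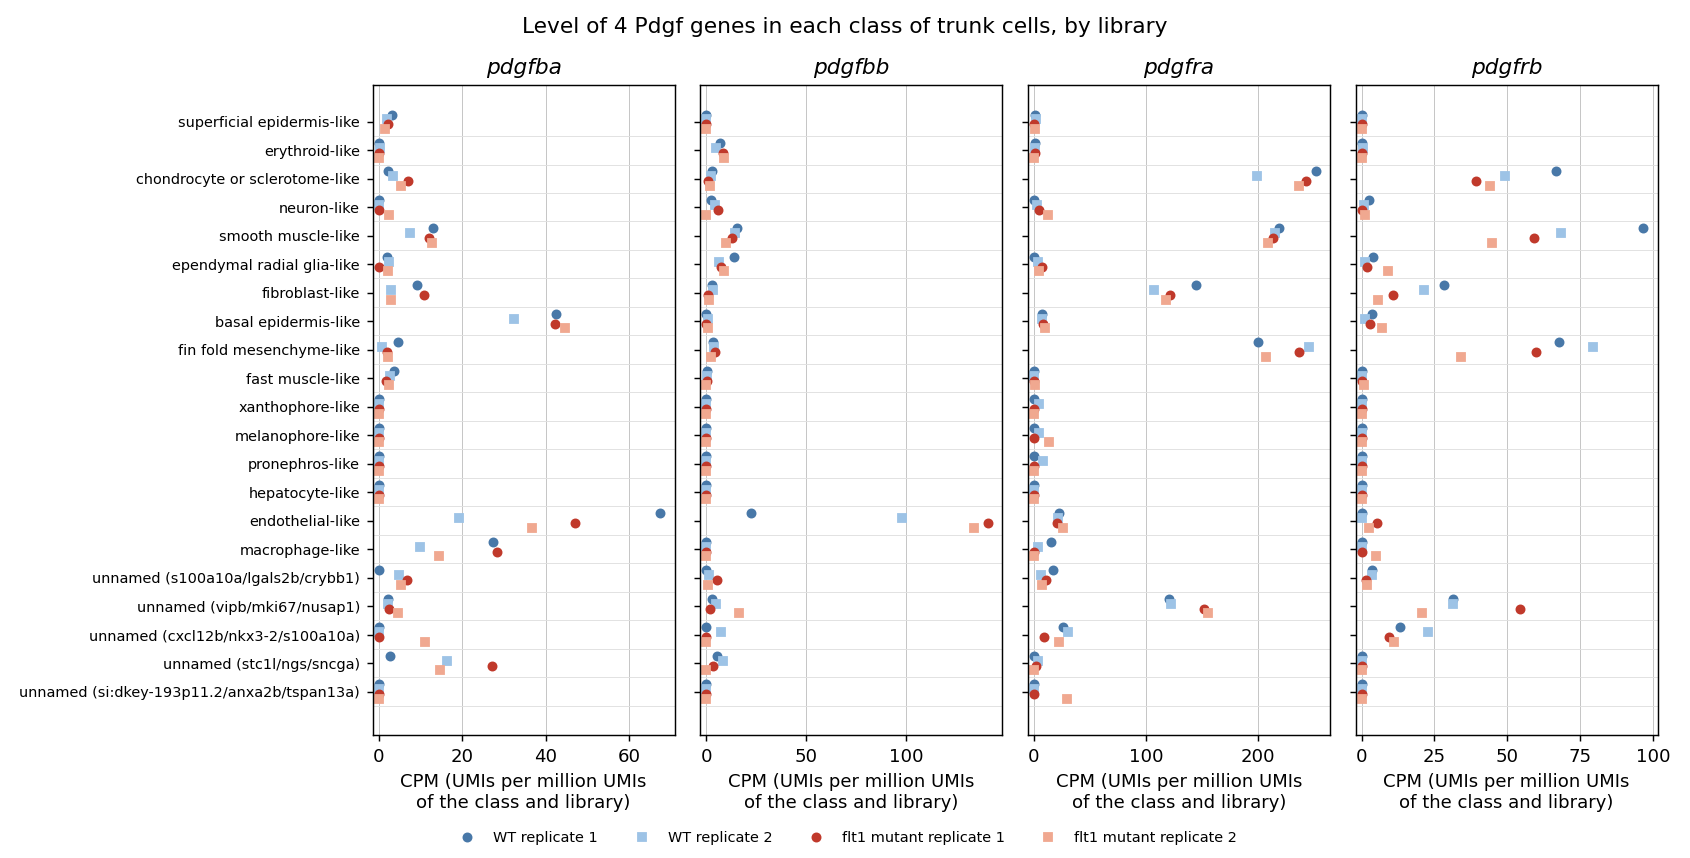
Level of each Pdgf gene in every class that had 20 or more cells per library. The x axes show CPM, rows are classes and the 4 points of a row are the libraries, with WT in blue and flt1 mutants in red. pdgfbb stands out in endothelial-like cells at 22.5 to 141 CPM, while pdgfra reaches 199 to 252 CPM in chondrocyte or sclerotome-like cells.

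pdgfbb encodes the B-chain ligand that vessels use to attract mural cells. In endothelial-like cells it measured 22.5 and 97.8 CPM in the WT libraries and 141 and 134 CPM in the flt1 mutant libraries (98.8 ± 54.3, n = 4). WT replicate 1 was the low library, with 3 UMIs in 21 cells, against 46, 27 and 51 UMIs in WT replicate 2 and mutant replicates 1 and 2. These 0.826% of the retained cells held 20.1% of all pdgfbb UMIs. The library ranges of the endothelial-like class and of the next class in the order, smooth muscle-like at 13.1 ± 2.29 CPM, did not overlap. The share of all genes without overlap between classes, here and below, was not computed.

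A pdgfbb UMI was found in 25.3% of endothelial-like cells (41 cells, 95% Clopper-Pearson interval 18.8 to 32.7, covering counting error only, as do all such intervals here), and 1 cell held 14 UMIs. Whether the signal was limited to few cells or sparsely captured from many was not tested. Thinned shares, here and below, leave out cells under 2000 UMIs and thin the rest to 2000 UMIs each. For pdgfbb in endothelial-like cells the thinned share was 14.3% (16 of 112 cells, interval 8.39 to 22.2). It was 0 of 1808 in superficial epidermis-like cells, which allows a share of up to 0.166%. The level was far above that of the deeply sequenced superficial epidermis, where 1 pdgfbb UMI was found among 39534074. Erythroid-like cells, the other gauge of free RNA, held 203 pdgfbb UMIs (4.97 to 8.78 CPM by library). The lowest endothelial-like library stood at 22.5 CPM.

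The endothelial-like cells with a pdgfbb UMI carried more transcripts of arterial genes. The arterial list had 7 genes, among them the Notch ligand dll4, the ephrin efnb2a, the connexin gja5a and the chemokine receptor cxcr4a. Their summed level in cells with and without a pdgfbb UMI was 3676 and 1003 CPM in WT replicate 1, 4291 and 1168 CPM in WT replicate 2, 6344 and 2801 CPM in mutant replicate 1, and 5334 and 1626 CPM in mutant replicate 2. The sum was higher in the cells with a UMI in 4 of 4 libraries. With the libraries pooled, dll4, efnb2a, gja5a, cxcr4a and hey2 were higher in the cells with a UMI. The other listed genes, notch1b (56.3 against 66.9 CPM) and unc5b (0 against 10.9 CPM), were lower. Of the 2232 UMIs of the list in cells with a pdgfbb UMI, most came from dll4 (830), cxcr4a (760) and efnb2a (550). The paper places Cxcr4a downstream of Dll4-Notch in tip cells, which lead vessel sprouts. The sum therefore does not separate arterial from sprouting cells. A sum of 7 venous or lymphatic genes, which included the receptors flt4, stab1 and stab2, was lower in the cells with a UMI in 3 of 4 libraries, for example 464 against 2323 CPM in WT replicate 2. The exception was WT replicate 1, at 7939 against 1997 CPM, where 3 cells held the UMIs. Of this list, ephb4a was not lower in the pooled cells with a UMI (29.3 against 27.3 CPM), and nr2f2 differed little (126 against 145 CPM). Cells with a UMI were also deeper, with a median of 9428 against 5247 UMIs, and this split is a description without a test.

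**Figure D2:**
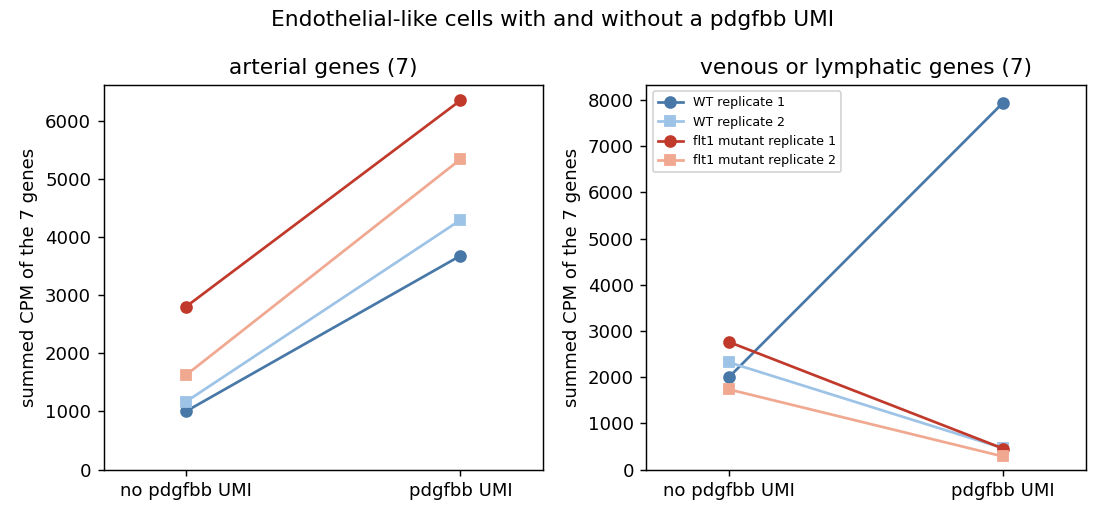
Summed CPM of 7 arterial genes (left) and of 7 venous or lymphatic genes (right) in endothelial-like cells without and with a pdgfbb UMI, with 1 line per library. The arterial sum is higher with a pdgfbb UMI in 4 of 4 libraries, and the venous or lymphatic sum is lower in 3 of 4.

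Outside the endothelium pdgfbb was lower. Smooth muscle-like cells measured 15.11 and 14.3 CPM in the WT libraries and 13.1 and 9.91 CPM in the mutants, and within them the signal lay in the subcluster led by hand2, nkx3.3 and nkx2.3 (21.2 ± 8.62 CPM, 62 UMIs) and in that led by aldocb, fbp2 and barx1 (21.0 ± 12.6 CPM, 35 UMIs). The subcluster led by acta2, tagln and csrp1b had 2 UMIs in all. Next in the order came ependymal radial glia-like cells (9.13 ± 3.38 CPM), the stem cells lining the spinal canal, and erythroid-like cells (7.28 ± 1.71 CPM), and the library ranges of neighbours in this order, smooth muscle-like cells included, overlapped.

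The erythroid-like cells contributed 32.1% of all pdgfbb UMIs through their number and depth. They measured 7.03 and 4.97 CPM in the WT libraries and 8.35 and 8.78 CPM in the mutants, so the genotypes did not overlap, with the mutants higher, as in 19.7% of all genes of this class. The 203 UMIs were spread over 180 cells, of which 160 held a single UMI, and after thinning 1.59% of cells had one. The deeper superficial epidermis-like cells held a single pdgfbb UMI in all. Whether the erythroid-like UMIs came from free RNA was not tested. Hepatocyte-like, macrophage-like, melanophore-like, pronephros-like and xanthophore-like cells had no pdgfbb UMI. Each of these classes held between 280358 and 1053393 UMIs in all, beside 28052152 in erythroid-like cells, so low levels could be missed.

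pdgfba, the other B-chain gene, was not restricted to vessels. Endothelial-like cells measured 67.5 and 19.1 CPM in the WT libraries and 47.0 and 36.8 CPM in the mutants (42.6 ± 20.2, n = 4), each value resting on 9 to 14 UMIs. Basal epidermis-like cells, the tp63-positive layer on the basement membrane, measured 42.4 and 32.4 CPM in the WT libraries and 42.3 and 44.5 CPM in the mutants (40.4 ± 5.44). The endothelial-like values scattered widely around the tight basal epidermal ones, and the order of these classes is not resolved. In number of transcripts the skin led, since basal epidermis-like cells were 3.36% of the cells and held 39.7% of the pdgfba UMIs.

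The pdgfba signal separated the layers of the skin. A UMI was found in 28.7% of basal epidermis-like cells (interval 25.3 to 32.3, median depth 14490) and in 3.85% of the deeper superficial epidermis-like cells (3.02 to 4.84). Thinning left 8.76% (6.67 to 11.2) and 0.664% (0.343 to 1.16), so the basal layer stayed above the superficial layer at matched depth. Macrophage-like cells measured 19.99 ± 9.24 CPM from 21 UMIs, with the WT libraries at 27.4 and 9.82 CPM and the mutant libraries at 28.2 and 14.5 CPM. A cluster led by stc1l, ngs and sncga followed at 15.2 ± 9.98 CPM and smooth muscle-like cells at 11.3 ± 2.65 CPM, the latter overlapping with fibroblast-like cells at 6.49 ± 4.07 CPM. Among mesenchymal subclusters the highest was led by rspo4, jam2b and pcolcea, at 20.7 ± 11.8 CPM. Erythroid-like cells had 4 UMIs of pdgfba, against 203 of pdgfbb.

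pdgfra, the receptor of mesenchymal cells, was found in several mesenchymal classes and, in the highest of them, varied little between libraries. Chondrocyte or sclerotome-like cells measured 251.6 and 198.8 CPM in the WT libraries and 242.6 and 236.8 CPM in the mutants (232 ± 23.3), and most of the UMIs lay in the foxd1 (1115), gsc (719) and ccl25b (523) subclusters rather than in those of cartilage. Fin fold mesenchyme-like cells, which build the fin skeleton, measured 200 and 245 CPM against 237 and 207 CPM (222 ± 22.3), and smooth muscle-like cells 219 and 215 CPM against 213 and 209 CPM (214 ± 4.05). Neighbours among these 3 classes overlapped, and all lay above a dividing cluster led by vipb, mki67 and nusap1 (137 ± 18.5 CPM) and fibroblast-like cells (123 ± 15.8 CPM), which overlapped with each other. Endothelial-like cells came next at 22.7 ± 2.46 CPM, from 27 UMIs, and did not overlap with the fibroblast-like range.

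Shares of cells gave the same split between mesenchyme and the rest. With 2000 UMIs per cell, a pdgfra UMI was found in 35.9% of chondrocyte or sclerotome-like cells (33.2 to 38.6), 32.7% of fin fold mesenchyme-like cells (28.1 to 37.5), 29.0% of smooth muscle-like cells (26.0 to 32.2) and 22.4% of fibroblast-like cells (19.5 to 25.5). The share was 1.79% in endothelial-like cells (2 of 112, 0.217 to 6.30), whose interval took in the 0.221% of superficial epidermis-like cells. For pdgfra, the share of cells at this depth thus did not tell endothelial-like from superficial epidermis-like cells. The levels over all UMIs lay apart, at 20.9 to 26.3 CPM in endothelial-like and 0.27 to 1.92 CPM in superficial epidermis-like cells. The source of the endothelial-like UMIs was not tested.

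pdgfrb, the receptor of mural cells, followed pdgfra across the classes but with a wider spread between libraries. Smooth muscle-like cells measured 96.7 and 68.4 CPM in the WT libraries and 59.25 and 44.8 CPM in the mutants (67.3 ± 21.9), fin fold mesenchyme-like cells 67.7 and 79.5 against 60.0 and 34.1 CPM (60.3 ± 19.3), and chondrocyte or sclerotome-like cells 66.6 and 49.2 against 39.4 and 44.0 CPM (49.8 ± 11.9). In all 3 classes both mutant libraries lay below both WT libraries, as they did for 16.1%, 17% and 17.3% of all genes of these classes in the same order. The ranges of these classes overlapped with their neighbours, and the dividing cluster led by vipb followed at 34.4 ± 14.2 CPM. Fibroblast-like cells measured 28.1 and 21.4 CPM in the WT libraries and 10.7 and 5.63 CPM in the mutants (16.5 ± 10.2), again without overlap of the genotypes (15.8% of all genes lower). Endothelial-like cells had 2 pdgfrb UMIs in all, 1 in each mutant library.

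After thinning, a pdgfrb UMI was found in 10.1% of chondrocyte or sclerotome-like cells (8.47 to 11.9), 9.60% of smooth muscle-like cells (7.72 to 11.8), 8.61% of fin fold mesenchyme-like cells (6.03 to 11.8) and 2.99% of fibroblast-like cells (1.91 to 4.46). It was found in 0 of 1634 erythroid-like cells, which allows a share of up to 0.184%, and in 0 of 112 endothelial-like cells, which allows up to 2.68%. Before thinning the 28.1% of smooth muscle-like cells with a UMI stood against 0.275% of superficial epidermis-like cells.

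Within the mesenchyme the receptor genes diverged. pdgfra was highest in the subcluster led by ccl25b, ca6 and tnmd (439 ± 51.5 CPM), where tnmd is a gene of tendon cells, and in that led by foxd1, cldn11a and apof (367 ± 18.6 CPM). pdgfrb was highest in the foxd1 subcluster (185.5 and 120 CPM in the WT libraries, 92.0 and 110 CPM in the mutants) and in the hand2 subcluster (148 and 116 against 110 and 78.2 CPM), and was lower in the ccl25b subcluster, at 42.0 CPM. The subcluster led by rspo4 had pdgfra at 250 CPM but pdgfrb at 14.1 CPM. Contractile cells led by acta2 had both, at 174 and 47.9 CPM.

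Some subclusters had little of either receptor. The cartilage subcluster led by col9a1b, si:ch73-23l24.1 and matn3a had 1 pdgfra UMI and no pdgfrb UMI, and muscle progenitor-like cells led by myog, a gene of differentiating muscle, had 10.4 CPM of pdgfra, compared with 137 CPM in those led by myf5. The subcluster led by emilin3a, col8a2 and loxl4 (66 cells) had no pdgfrb UMI and 3 UMIs of pdgfra, although its summed pericyte list stood at 590 to 1725 CPM through foxc1b, rgs5a and rgs5b, with abcc9, kcnj8 and kcne4 at 0.

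Both receptors were also compared cell by cell after thinning. In smooth muscle-like cells a pdgfrb UMI was found in 16.3% of cells with a pdgfra UMI and in 6.84% of those without (41 cells had both), while fin fold mesenchyme-like cells gave 8.53% and 8.65%. In the hand2 subcluster the shares were 25.4% and 10.1%, and in the foxd1 subcluster 16.4% and 17.8%. pdgfrb was thus found more often in the hand2 cells with pdgfra than in those without, in 3 of 4 libraries, and this was not seen over the foxd1 cells. These shares are a description over cells of the same 4 libraries.

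**Figure D3:**
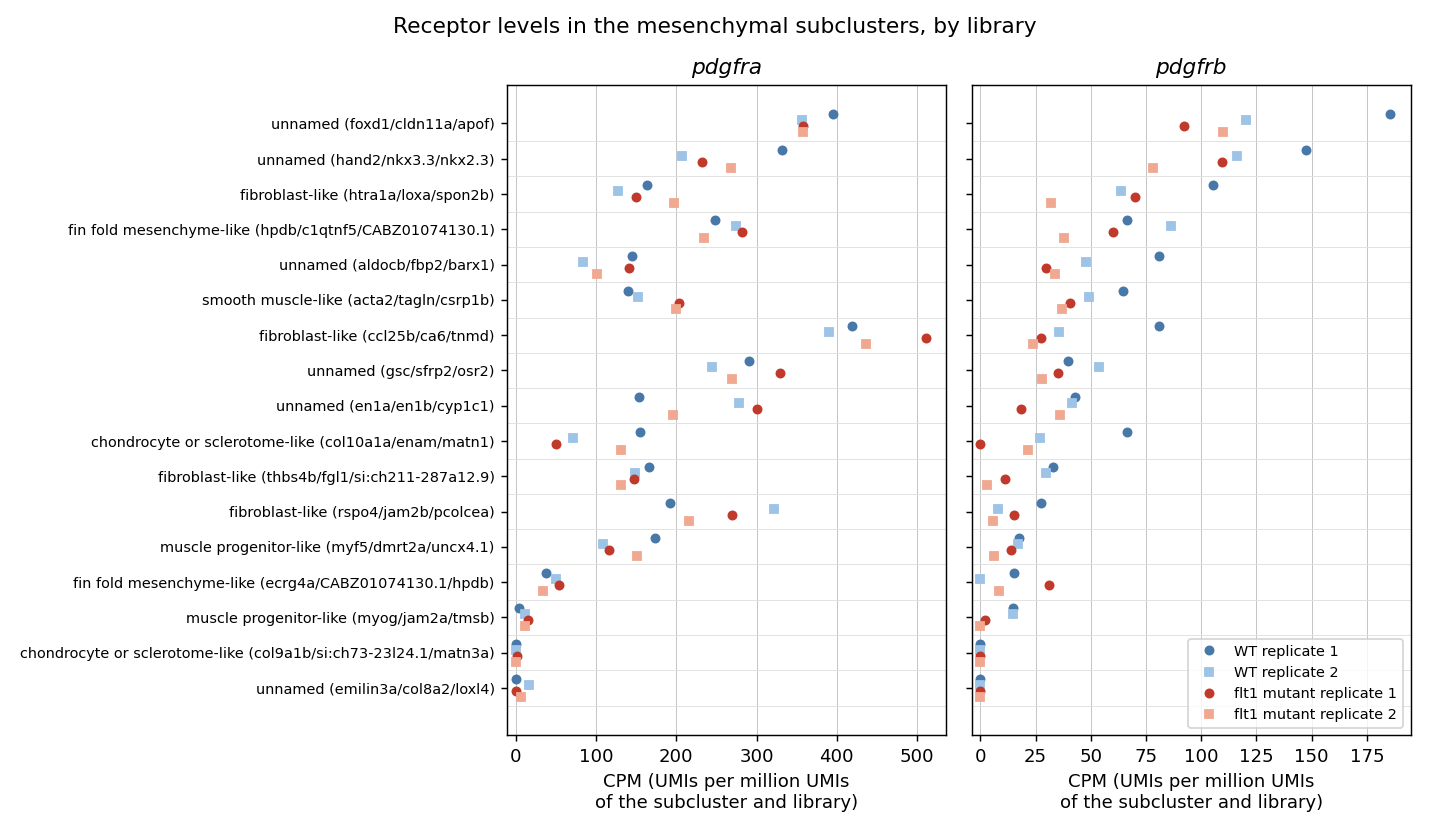
Receptor levels in the 17 mesenchymal subclusters, pdgfra on the left and pdgfrb on the right. The x axes show CPM, rows are subclusters named by their leading genes, and points are the 4 libraries with WT in blue and flt1 mutants in red. pdgfrb reaches 185.5 CPM in the foxd1 subcluster and is at 0 in the col9a1b and emilin3a subclusters, and its mutant points lie left of its WT points in 11 of the 13 subclusters with at least 20 pdgfrb UMIs (17.1% over all genes).

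The genes whose profile over the 16 named classes of 20 or more cells per library was most like each Pdgf gene were taken from 14924 genes, by Pearson correlation of log2(mean CPM + 5). The points share libraries and depth, so the values are descriptive. For pdgfbb they included the Vegf receptor kdrl (0.92) and the endothelial tight junction gene cldn5b (0.91), beside si:dkey-110g7.8 (0.93), CU570791.3 (0.92) and si:ch211-195o20.7 (0.90). For pdgfba they were ch25h (0.91), camk1b (0.90), arhgap29b (0.89), prdm1a (0.88) and il4r.2 (0.88). For pdgfra, si:dkey-238c7.16, ccn2b, colec12, the mesenchymal transcription factor twist1a and tmem119b all reached 0.98. For pdgfrb, fbln5 and snai1b reached 0.98, and thbs3b, si:ch211-106h4.12 and apela 0.97. The receptor genes correlated with each other at 0.96, and the ligand genes at 0.48.

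Ligands and receptors were then compared between endothelial-like, smooth muscle-like and fibroblast-like cells. Summed UMIs per library and class were tested with edgeR's quasi-likelihood test with the library as a block and Benjamini-Hochberg adjustment over all genes. Of the 12 tests of the 4 genes, 11 passed an adjusted p of 0.05. The same threshold was passed by 34.3% of all genes in the endothelial-like over smooth muscle-like comparison, by 47.1% in endothelial-like over fibroblast-like and by 51.3% in smooth muscle-like over fibroblast-like cells. The classes were made from the same cells with genes that vary along with these 4, so the p-values are too small.

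pdgfbb was higher in endothelial-like than in smooth muscle-like cells by a log2 difference of 2.86 ± 0.32 (SE, adjusted p = 8.59e-08), and higher than in fibroblast-like cells by 5.20 ± 0.41. pdgfba was higher in endothelial-like cells by 1.68 ± 0.34 (adjusted p = 0.000334) and 2.52 ± 0.38 on the same scale. The receptors showed the opposite direction. pdgfra was lower in endothelial-like cells, with log2 differences of -3.31 ± 0.25 against smooth muscle-like and -2.56 ± 0.24 against fibroblast-like cells, and pdgfrb with -5.20 ± 0.53 (adjusted p = 2.09e-08) and -3.27 ± 0.78 (adjusted p = 0.00194).

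Smooth muscle-like cells exceeded fibroblast-like cells in pdgfrb by a log2 difference of 1.95 ± 0.18, in pdgfra by 0.70 ± 0.10 and in pdgfbb by 2.43 ± 0.32. pdgfba differed by 0.72 ± 0.31 and did not pass (adjusted p = 0.0733). Since both classes were mixed, the subclusters named alike were set side by side without a test, a choice made after their values were seen. pdgfrb measured 64.8 and 49.1 CPM in WT and 40.6 and 37.0 CPM in mutant libraries in the contractile acta2 subcluster, and 32.7 and 29.6 against 11.1 and 3.05 CPM in the main fibroblast-like subcluster, led by thbs4b, so that the 4 libraries of these subclusters did not overlap. pdgfra did, at 174 CPM in the former and 148 CPM in the latter. This pair leaves out the other subclusters named fibroblast-like, led by ccl25b, htra1a and rspo4. The pdgfrb mean of the ccl25b subcluster, given above, lay within the range of the acta2 libraries, and that of the rspo4 subcluster lay below it. The htra1a subcluster went against the contrast. It had 76 cells, a median depth of 8646 and 47 pdgfrb UMIs, beside 166 cells, 9779 and 78 in the acta2 subcluster, so more per cell. The share of all genes without overlap between these subclusters was not computed. The difference in pdgfrb between endothelial-like and fibroblast-like cells rests on 2 endothelial UMIs and did not pass without WT replicate 2 (-2.13, adjusted p = 0.0610, the highest over its alternatives, which went down to 1.39e-05).

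**Figure D4:**
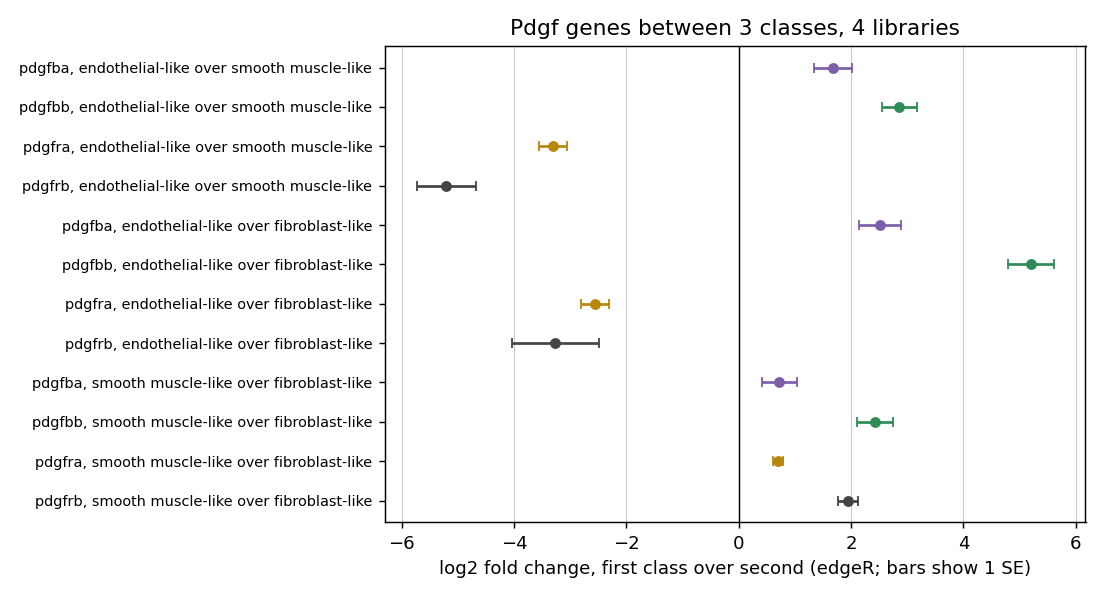
Log2 differences of the 4 Pdgf genes between classes, from the fit on 4 libraries. Rows name the gene and the classes compared, points are estimates and bars show 1 SE. Ligand points lie right of 0 and receptor points left of 0 wherever endothelial-like cells come first.

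The other Pdgf genes had distributions of their own, some close to those of pdgfbb and pdgfba. pdgfd, a further ligand of Pdgfrb in mammals, was higher in endothelial-like than in smooth muscle-like (log2 difference 5.46 ± 0.66) and fibroblast-like cells (4.88), as pdgfbb was, with 30 UMIs in the class. pdgfab, an A-chain ligand, was highest in smooth muscle-like cells (65.6 ± 13.6 CPM) and exceeded fibroblast-like cells by 1.60 on the log2 scale. pdgfc was highest in basal epidermis-like cells (23.0 ± 4.67 CPM) and lower in smooth muscle-like than in fibroblast-like cells (-2.46). pdgfrl, a receptor-like gene without a kinase domain, was lower in smooth muscle-like than in fibroblast-like cells (-2.59), and pdgfaa, which is listed under 2 identifiers, was higher there for ENSDARG00000110069 (4.72).

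Among 7 genes of co-receptors and ligand processing, 5 could be tested in each comparison. The neuropilin nrp1b was higher in endothelial-like than in smooth muscle-like cells (log2 difference 1.72 ± 0.46), and the lipoprotein receptor-related genes lrp1aa and lrp1ab were lower (-4.33 ± 0.54 and -3.55 ± 0.53). Of 26 genes that act downstream of receptor tyrosine kinases, such as adaptors and kinases, 11 were higher and 2 lower among 23 tested in endothelial-like over smooth muscle-like cells, where 16.6% of all genes were higher and 17.7% lower. Their median was 0.25, beside -0.07 over all genes tested. In endothelial-like over fibroblast-like cells 11 were higher and 0 lower of 22 (median 0.90, all genes -0.08), with backgrounds of 22.4% and 24.7%. Over smooth muscle-like cells, the genes that passed included sos1, an exchange factor for Ras, which was higher (3.79 ± 0.43). The adaptor nck2a was lower in that comparison (-1.80 ± 0.43). In smooth muscle-like over fibroblast-like cells 10 were higher and 0 lower of 22 (median 0.27, all genes 0.02), where 25.7% of all genes were higher and 25.6% lower.

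The comparison of genotypes asked whether loss of Flt1 went with a change in Pdgf transcripts. None of the 4 genes passed in the whole trunk, where 0.466% of 18036 genes did, and 0 of 4 had an unadjusted p under 0.05, beside 2823 of all 18036 genes. In the classes, 0 of 20 tests of the 4 genes passed with edgeR's quasi-likelihood test, beside 1.32% of all tests over the 16 classes, and 5 of the 20 had an unadjusted p under 0.05, beside 11953 of all 92981 tests. The share of all genes that passed was 0.0855% in endothelial-like, 0.91% in smooth muscle-like, 0.393% in fibroblast-like, 0.214% in chondrocyte or sclerotome-like and 0.22% in fin fold mesenchyme-like cells. It was 0.836% in basal epidermis-like, 6.1% in superficial epidermis-like, 3.49% in erythroid-like and 1.07% in fast muscle-like cells, the other classes in which a Pdgf gene could be tested. DESeq2 also called 0 of 4 and 0 of 20.

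pdgfrb gave the most regular values. Over the whole trunk it measured 15.7 and 9.06 CPM in the WT libraries and 8.55 and 7.80 CPM in the mutants, a log2 difference of -0.51 ± 0.21 (adjusted p = 0.332). The mutant libraries lay below both WT libraries, as did those of 21.7% of all genes. In such a sum, fewer cells of a type and less RNA per cell cannot be told apart.

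Within classes the log2 differences of pdgfrb were -1.62 ± 0.34 in fibroblast-like cells (adjusted p = 0.125 with edgeR), -0.74 ± 0.20 in smooth muscle-like cells (adjusted p = 0.163), -0.66 ± 0.28 in fin fold mesenchyme-like cells (adjusted p = 0.558) and -0.50 ± 0.19 in chondrocyte or sclerotome-like cells (adjusted p = 0.442). The fibroblast-like values rest on 55 and 58 WT UMIs against 24 and 11 from the mutants. The mutant libraries lay below both WT libraries in 4 of the 6 classes with at least 20 pdgfrb UMIs, against 20.2% of all genes and classes, and in 11 of 13 subclusters, against 17.1%. The exceptions were basal epidermis-like cells and the dividing cluster led by vipb among the classes, and the subclusters led by htra1a and by rspo4. Classes and subclusters come from the same 4 libraries, so these counts are not independent repeats.

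The fibroblast-like result depended on the fit. Its adjusted p was 8.26e-05 without a filter on low counts and 6.55e-06 without WT replicate 2, the lowest over the alternatives, and 0.271 without mutant replicate 2, the highest. Without WT replicate 2 the smooth muscle-like difference (-0.94) also passed, with an adjusted p of 0.000242, over alternatives that reached 0.620. In smooth muscle-like cells the summed level of 10 erythroid markers moved with genotype, at 305 and 374 CPM in the WT libraries and 4985 and 2941 CPM in the mutants, and the pericyte list stood at 259.5 and 200.5 against 409 and 293 CPM. In fibroblast-like cells the erythroid sum stood apart by library and not by genotype, at 10354 and 302 CPM in WT and 12232 and 335 CPM in the mutants. In chondrocyte or sclerotome-like cells it was 16265 and 8453 against 17894 and 4547 CPM, and in fin fold mesenchyme-like cells 403 and 4380 against 27377 and 694 CPM. The part of these markers in the pdgfrb values was not tested.

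The values of pdgfra lay closer to 0. Its log2 difference between genotypes was 0.05 ± 0.14 in the whole trunk (WT 51.2 and 34.0 CPM, mutants 39.8 and 44.1 CPM), -0.12 ± 0.10 in smooth muscle-like, -0.14 ± 0.17 in fibroblast-like, -0.03 ± 0.18 in fin fold mesenchyme-like cells and, in chondrocyte or sclerotome-like cells, 0.06 ± 0.15. Library ranges overlapped between genotypes in the whole trunk, and the mutant libraries lay below both WT libraries in 1 of 15 subclusters and above them in 2, beside 17.1% and 22% of all genes and subclusters. Over classes the counts were 2 lower and 2 higher of 9, beside 20.2% and 21.3%. In superficial epidermis-like cells, at 1.095 and 1.92 CPM in WT and 0.27 and 0.53 CPM in mutants, the difference was -1.87 ± 0.59 (adjusted p = 0.125 with edgeR). These values rest on 38 UMIs in 17 cells, with up to 9 UMIs in a cell.

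The ligand genes gave no call between genotypes. Of the 7 classes with at least 20 pdgfbb UMIs, the mutant libraries lay below both WT libraries in 3 (smooth muscle-like, fibroblast-like and chondrocyte or sclerotome-like) and above them in 2 (endothelial-like and erythroid-like), beside 20.2% and 21.3% of all genes and classes. In smooth muscle-like cells the difference was -0.43 ± 0.27 on the log2 scale (adjusted p = 0.555). pdgfbb in endothelial-like cells differed by a log2 difference of 0.88 ± 0.44 (adjusted p = 0.701), where both mutant libraries lay above both WT libraries, as for 17.4% of all genes of the class, but WT replicate 2 was nearer to the mutants than to WT replicate 1. Without WT replicate 1, which held 3 UMIs, the difference was 0.44, and without WT replicate 2 it was 2.64. The arterial sum of the whole endothelial-like class moved with genotype too, at 1379 and 2400 CPM in the WT libraries and 4384 and 3130 CPM in the mutants, and its part in the pdgfbb values was not tested. In erythroid-like cells pdgfbb differed by 0.53 ± 0.26 (adjusted p = 0.373), and passed only without WT replicate 1 among the left-out libraries (0.90, adjusted p = 0.0112, over alternatives that reached 0.889).

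pdgfba differed by 0.13 ± 0.16 in the whole trunk, 0.30 ± 0.60 in endothelial-like and 0.16 ± 0.18 in basal epidermis-like cells. In chondrocyte or sclerotome-like cells it measured 2.21 and 3.34 CPM in the WT libraries and 6.91 and 5.24 CPM in the mutants, a difference of 1.06 ± 0.45 on the log2 scale (adjusted p = 0.512). These libraries did not overlap, as was the case for pdgfba in 4 of 11 classes with at least 20 UMIs, higher in mutants in 3 and lower in 1, beside 21.3% and 20.2% of all genes and classes. Among the other Pdgf genes, pdgfrl in fibroblast-like cells came nearest to the threshold (-0.82 ± 0.13, adjusted p = 0.0554). In the lists of co-receptors and of downstream signalling genes 0 genes passed between genotypes in the whole trunk and in endothelial-like, smooth muscle-like and fibroblast-like cells.

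**Figure D5:**
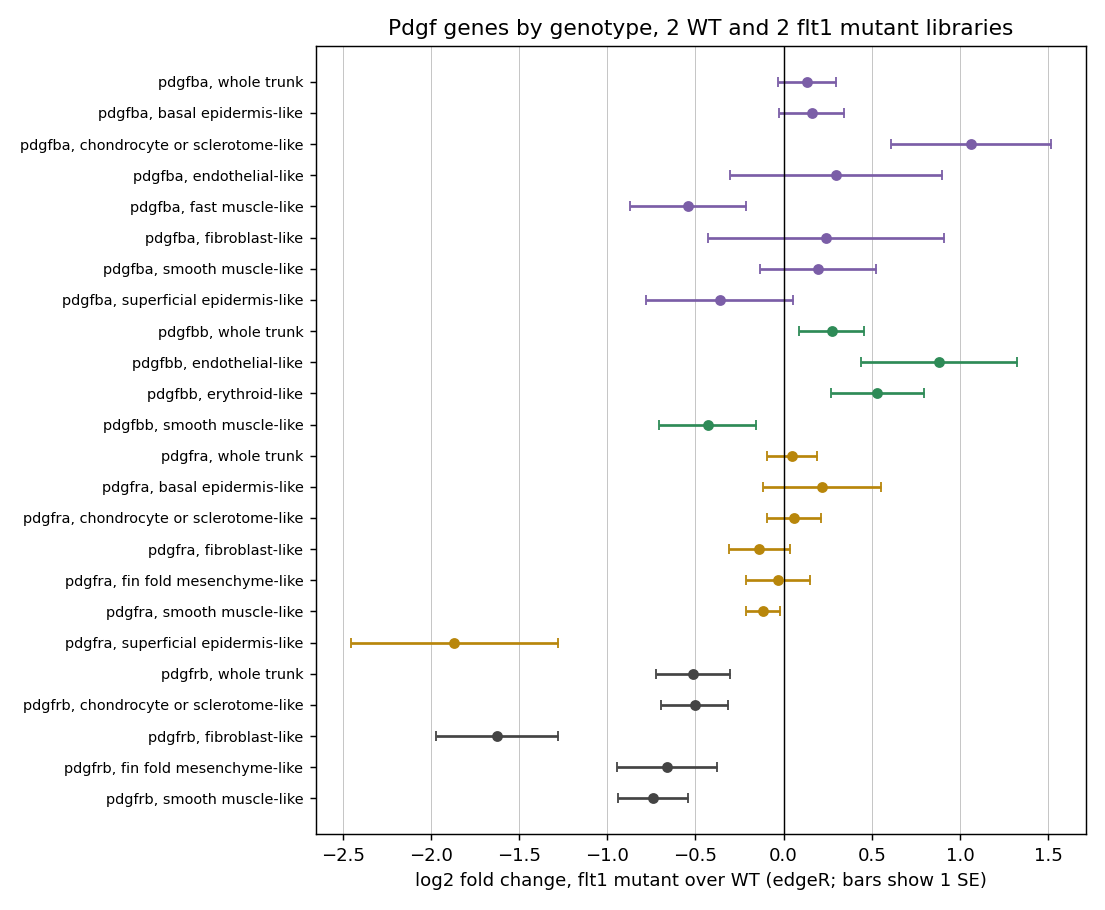
Log2 differences of the Pdgf genes between flt1 mutant and WT libraries, from edgeR, in the whole trunk and in each class where the gene could be tested. Points are estimates and bars show 1 SE. All pdgfrb points lie left of 0, from -1.62 to -0.50, the pdgfra points of mesenchymal classes lie near 0, and no point passed the adjusted threshold.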

How the data were processed

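The authors deposited unnormalized whole-number UMI counts for each gene in each barcode, made per the file headers with Cell Ranger 6.1.1 and, per the labels, against GRCz11. The labels name v2 chemistry and the methods v3. Genes were matched by symbol, and no coordinates or sequences are given.

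Cells with over 200 and under 4000 genes and under 5% mitochondrial UMIs were kept, which removed 39.6% of barcodes. Clustering used Seurat 5.3.0 (R 4.3.3) on log-normalized counts of 2000 variable genes, less the Pdgf genes, with integration over 30 dimensions, 50 components and a resolution of 0.3. Mesenchymal clusters were clustered again (20 components, resolution 0.5) into 17 subclusters. Clusters were named from marker lists. A cluster stayed unnamed if too few markers of its best list stood out or none was among its leading 10 genes. It also stayed unnamed if another list had more markers there. Unnamed clusters got values without a test. The members, lists and tests were chosen with earlier results of these data known. Doublets were kept in the main values: Scrublet (scanpy 1.11.5) marked under 0.5% of cells and was judged not to have worked.

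UMI sums per library and class (classes of 20 or more cells per library) were tested by genotype, or between named classes, with edgeR 4.0.16 (quasi-likelihood, two-sided, TMM, filterByExpr, Benjamini-Hochberg over all genes of a fit). The scripts were tested on simulated data. Alternatives were DESeq2 1.42.0, library totals, no count filter, a replicate block, each library left out, all deposited barcodes, Pdgf genes kept for clustering, no integration, thinning to 2000 UMIs and, chosen after seeing the data, leaving out the 6% of cells with the highest Scrublet scores and crossed replicate numbers. The named genes were the 4 members, the 5 genes most correlated with each, and listed pathway genes. A count of 0 allows up to 3 UMIs in a sum, and shares carry 95% Clopper-Pearson intervals.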

Additional observations from a re-analysis of the deposited data

Results flagged for a closer look

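Signal was also present in the 39.6% of barcodes that the filters left out, which take no part in the comparisons above. These barcodes held 751 UMIs of pdgfba, 350 of pdgfbb, 1248 of pdgfra and 275 of pdgfrb, all above the 3 UMIs that a count of 0 allows. There pdgfrb measured 5.98 and 3.64 CPM in the WT libraries and 2.91 and 2.97 CPM in the flt1 mutant libraries. Both mutants lay below both WT libraries here and in the retained cells, where 21.7% of all genes did. The share over all genes was not computed for the left-out barcodes, which come from the same libraries and are no independent repeat. pdgfra measured 22.2 and 15.3 against 15.8 and 15.8 CPM, pdgfba 13.1 and 7.84 against 10.8 and 10.2 CPM, and pdgfbb 6.90 and 2.92 against 4.25 and 5.84 CPM, each with overlapping genotypes. The cell types of these barcodes were not assigned.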

How the results depend on the processing

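The count of 0 of 4 calls in the whole trunk held under every alternative run. In the classes the 0 of 20 calls became 2 of 50 without a count filter (pdgfrb in fibroblast-like cells, and pdgfra in superficial epidermis-like cells with an adjusted p of 0.0491, over alternatives that reached 0.543), 1 of 19 without the highest Scrublet scores and 1 of 20 with the replicate number as a block, each time pdgfrb in fibroblast-like cells (adjusted p = 0.0448 and 0.000764, over alternatives from 6.55e-06 to 0.271), and from 0 to 2 with 1 library left out. Deviations of same-numbered libraries correlated at -0.18. With 2 libraries per genotype, this value cannot settle whether the numbers pair the libraries. With crossed numbers as a block 1 of 20 passed. Where a library was left out, the lone library of its genotype was assumed to vary like the others. The log2 difference of pdgfrb stayed negative under all alternatives run, between -2.20 and -1.25 in fibroblast-like, -0.95 and -0.49 in smooth muscle-like, -0.68 and -0.31 in chondrocyte or sclerotome-like, -1.20 and -0.29 in fin fold mesenchyme-like cells and -0.75 and -0.22 in the whole trunk. Small differences turned sign. pdgfra turned negative in the whole trunk with library totals (-0.020) and with all deposited barcodes (-0.033), and in basal epidermis-like cells without the highest Scrublet scores (-0.24). With 1 library left out, pdgfra ranged from -0.10 to 0.23 in the whole trunk, -0.34 to 0.086 in fibroblast-like, -0.077 to 0.20 in chondrocyte or sclerotome-like and -0.19 to 0.11 in fin fold mesenchyme-like cells. pdgfba then ranged from -0.013 to 0.28 in the whole trunk, -0.71 to 0.028 in superficial epidermis-like, -0.99 to 1.18 in fibroblast-like, -0.017 to 0.35 in basal epidermis-like, -0.65 to 1.04 in endothelial-like and -0.12 to 0.65 in smooth muscle-like cells. Between classes, 10 to 12 of 12 tests passed with 1 library left out. pdgfba in smooth muscle-like over fibroblast-like cells passed without mutant replicate 1, with library totals and without a count filter (adjusted p from 0.0314 to 0.279 over its alternatives). Without integration no class could be named fibroblast-like, so 4 of 4 tests passed. Thinning lowered the shares of cells with a UMI from 17.3% to 4.46% for pdgfba and from 25.3% to 14.3% for pdgfbb in endothelial-like cells, from 60.7% to 35.9% for pdgfra in chondrocyte or sclerotome-like cells and from 28.1% to 9.60% for pdgfrb in smooth muscle-like cells. The thinned shares leave out cells under 2000 UMIs, so they also cover fewer cells. The planned removal of Scrublet's own doublet calls was not run. The cause of the calls gained was not tested. Depth limits the endothelial-like values, of which pdgfbb rests on 3 UMIs in WT replicate 1 and pdgfrb on 2 UMIs in all.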
